A study of Mus musculus with 8 samples.

Results

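Insulin-like growth factors (IGFs) are peptide hormones related to insulin, and this account follows them, their receptor and their binding proteins through the mouse spleen stroma arrays. The genes *Igf1*, *Igf2*, *Igf1r*, *Igfbp2*, *Igfbp3*, *Igfbp4*, *Igfbp5*, *Igfbp6* and *Igfbp7* were listed, and every array probe annotated to 1 of these 9 symbols was taken. That gave 8 of the 15967 genes named on the array, with 11 of its 24613 probes. *Igfbp3* had no probe in the annotation used and was not analysed here. A probe was tested if both arrays of at least 1 sample type gave it a detection p under 0.05 against the negative control beads, and 8 probes of 7 genes met this. The others were the only *Igfbp2* probe and 2 of the 3 *Igfbp7* probes.

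The samples were run on 8 arrays (Illumina MouseRef-8), 2 for each of 4 sample types, all of C57BL/6 mice obtained at 8 to 10 weeks of age. Fresh stroma of WT (LTbR+/+) and of LTβR-KO (LTbR-/-) mice was the tissue that a 70 µm mesh retained, and WT splenocytes were the cells washed through it. Cultured WT stroma was the adherent cells of whole spleens cut up with scissors and grown with 10% serum, taken at week 3 to 4 and passage 2 to 3, so it differed from fresh stroma in preparation as well as in culture. LTβR, the lymphotoxin β receptor, organises the compartments of the spleen, and the knockout affected all cells of the animal. The arrays of a type are biological replicates according to the study's text and technical replicates of an extract according to the deposited design, so p-values here measure the spread between arrays, which may be technical only. In whole tissue, fewer cells of a type and less RNA per cell cannot be told apart.

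IGF1 and IGF2 both signal through the receptor tyrosine kinase IGF1R, which feeds the PI3K-AKT pathway of growth and survival. Secreted IGF-binding proteins hold the peptides in blood and matrix, and can block or prolong their action. IGFBP7 binds IGFs only weakly and is abundant in vessel walls. *Igf2* is an imprinted gene, expressed mainly from the paternal copy and most strongly before birth.

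The 8 genes lie on 6 chromosomes of GRCm38.p6. *Igfbp2* (chr1:72824480-72852474) and *Igfbp5* (chr1:72858065-72874865) are neighbours, and *Igf1r* (chr7:67952257-68233668) shares its chromosome with *Igf2* (chr7:142650768-142666816). *Igf1* lies at chr10:87858265-87937047, *Igfbp4* at chr11:99040005-99052655, *Igfbp6* at chr15:102144186-102149512 and *Igfbp7* at chr5:77349240-77408045. Where in each gene the probe lies was not analysed here.

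The genes whose signal was lower in LTβR-KO stroma were *Igf2*, *Igfbp5* and *Igfbp6*, and the 250 bases before their annotated start sites are shown because these 3 carry the knockout comparison. Sequences are those of RefSeq on GRCm38.p6, in the direction of the gene, and capitals mark a match to a searched motif. *Igf2* has 4 annotated starts, of which the outermost is shown (chr7:142666817-142667066, minus strand). The window of *Igfbp5* is chr1:72874866-72875115 on the minus strand and that of *Igfbp6* is chr15:102143936-102144185 on the plus strand.
*Igf2*: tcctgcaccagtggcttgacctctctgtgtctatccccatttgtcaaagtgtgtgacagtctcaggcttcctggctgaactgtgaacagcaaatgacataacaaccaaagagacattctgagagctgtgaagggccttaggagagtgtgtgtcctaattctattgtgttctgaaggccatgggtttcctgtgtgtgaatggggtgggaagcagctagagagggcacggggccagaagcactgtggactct
*Igfbp5*: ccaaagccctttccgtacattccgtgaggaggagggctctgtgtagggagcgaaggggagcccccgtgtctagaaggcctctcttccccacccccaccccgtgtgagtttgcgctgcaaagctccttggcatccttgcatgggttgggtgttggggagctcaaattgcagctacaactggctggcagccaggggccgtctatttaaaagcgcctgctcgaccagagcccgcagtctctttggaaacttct
*Igfbp6*: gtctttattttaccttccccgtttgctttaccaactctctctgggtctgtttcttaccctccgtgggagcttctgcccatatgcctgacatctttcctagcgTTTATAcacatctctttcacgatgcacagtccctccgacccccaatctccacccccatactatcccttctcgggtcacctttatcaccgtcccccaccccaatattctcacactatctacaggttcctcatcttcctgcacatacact

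The motifs searched on both strands were the κB-like letters GGGANTTTC, the GC box GGGCGG and the TATA box TATAAA, and matches of different motifs did not overlap in these windows. Among 32851 windows of the same length in the RefSeq table, 0.941% held the κB-like letters, 32.7% the GC box and 12.4% the TATA box. None of the 12 windows of the 8 genes held the κB-like letters. The windows of *Igf1* (chr10:87860861-87861110) and *Igfbp4* (chr11:99040994-99041243) lie inside the gene spans given above. The bases before the outer ends of these spans were not searched. The window of *Igfbp6* held TATAAA on the opposite strand 148 bases before the start, and that of *Igfbp4*, whose probes are described further on, held it 28 bases before. *Igfbp7* had 4 GC boxes, *Igfbp2* had 3 before 1 of its 2 starts, *Igf1r* had 2, and *Igf2* had 1 and 2 before its inner starts. A match is a string of letters and not a binding site.

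Bead signals were taken through background correction and quantile normalization to log2 values, on which 1 unit is a 2-fold difference. All 4 sample types were fitted together with limma over the 12389 tested probes, and a difference counted as called where the Benjamini-Hochberg adjusted p was below 0.05. Between 9900 and 11283 probes were detected per array, and replicate arrays differed with an SD of 0.23 to 0.33 on the log2 scale. The dimmest detected signals lay between 4.81 and 5.09. The probe of the targeted gene, *Ltbr*, read 6.44 and 6.80 in WT and 6.82 and 7.18 in LTβR-KO stroma. Where it lies relative to the deleted part is not known here, so it checks no genotype. Other markers bear on the labelled tissues. Against splenocytes, WT stroma had 6 of 6 smooth muscle and 6 of 7 endothelial genes higher, where 24.2% of all tested probes were. Lower were 4 of 4 T cell genes and 3 of 4 B cell genes, where 31.6% of all tested probes were. Platelet genes were higher for 4 of 4, and of 7 macrophage genes 0 were higher and 2 lower.

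**Figure D1:**
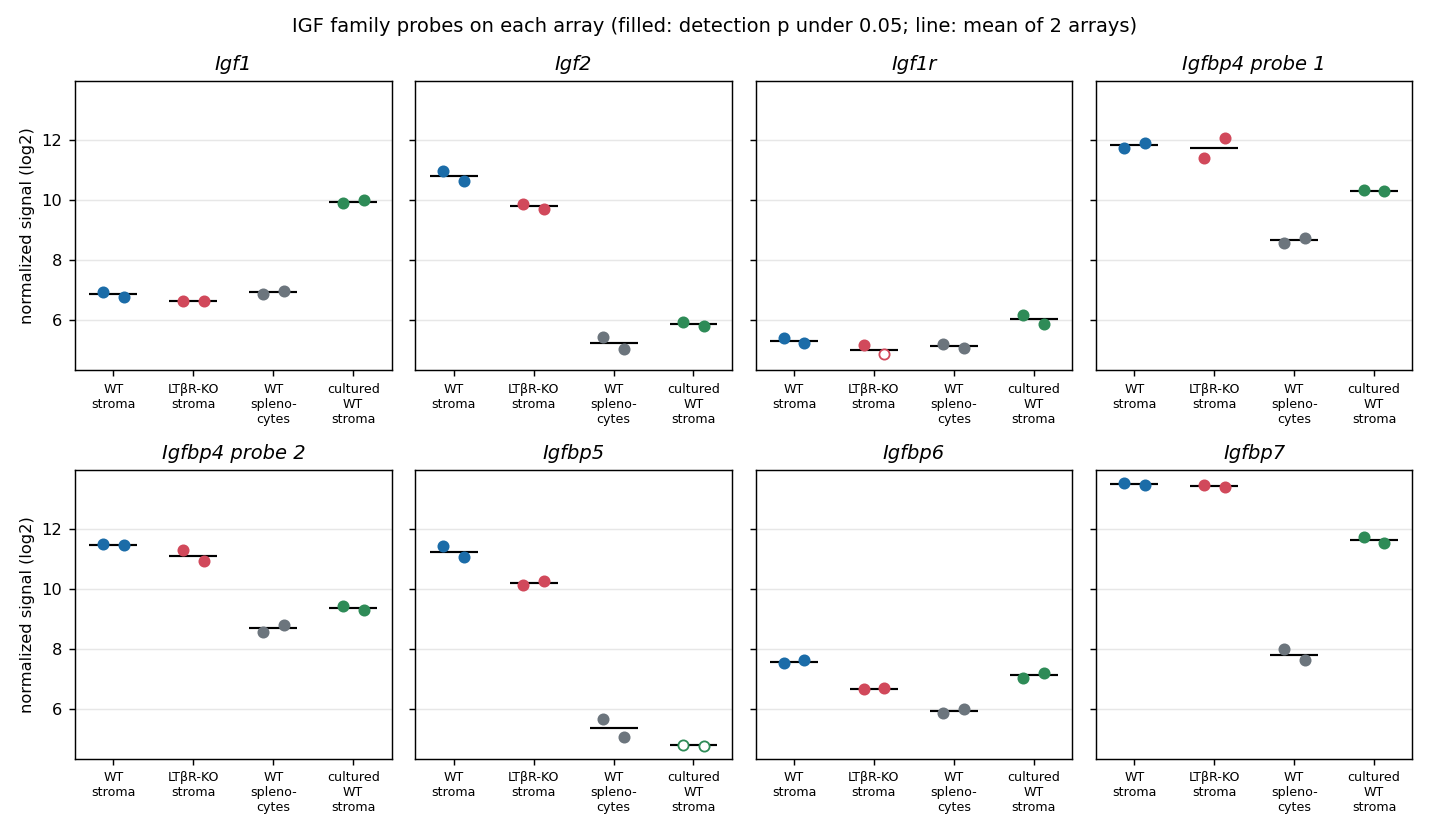
Normalized log2 signal (vertical axis) of the 8 tested IGF family probes on each of the 8 arrays, by sample type; filled points have a detection p under 0.05 and lines are means of 2 arrays. *Igf1* was brightest in cultured stroma, at 9.90 and 10.00, whereas *Igf2*, *Igfbp5* and *Igfbp7* were brightest in fresh stroma.

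Of the growth factors, *Igf2* was bright in fresh stroma and dim elsewhere. Its log2 signal was 10.96 and 10.62 in WT stroma against 9.88 and 9.71 in LTβR-KO stroma, with 5.46 and 5.03 for splenocytes and 5.94 and 5.82 in cultured stroma. Both fresh stroma types lay far above the other 2, the WT arrays above the LTβR-KO arrays, and no 2 sample types overlapped. The signal before normalization ran the same way, with 1269 and 1379 in WT stroma against 669 and 493 in LTβR-KO stroma, with 78.7 and 70.5 for splenocytes and 110 and 112 in culture.

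*Igf1*, the main circulating IGF and a product of macrophages as well as of fibroblasts, had another pattern. It gave 6.95 and 6.78 in WT stroma against 6.65 and 6.64 in LTβR-KO stroma, with 6.89 and 6.98 for splenocytes and 9.90 and 10.00 in cultured stroma. The cultured arrays stood apart, and those of WT stroma and splenocytes overlapped.

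The receptor gene *Igf1r* was dim throughout. It read 5.42 and 5.23 in WT stroma against 5.19 and 4.87 in LTβR-KO stroma, where the second array did not detect it, with 5.20 and 5.07 for splenocytes and 6.19 and 5.87 in cultured stroma. Only the cultured arrays stood above all the others, and the arrays of LTβR-KO stroma and splenocytes overlapped.

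Among the binding proteins, *Igfbp5*, whose product binds to matrix, followed *Igf2* in fresh tissue. It read 11.42 and 11.05 in WT stroma against 10.12 and 10.24 in LTβR-KO stroma, with 5.67 and 5.07 for splenocytes and 4.80 and 4.79 in culture, where neither array detected it. WT stroma lay above LTβR-KO stroma and both lay above splenocytes, with no overlap. Culture has only an upper limit, and its order against splenocytes is not known. *Igfbp6*, whose product prefers IGF2 over IGF1, read 7.51 and 7.62 in WT stroma against 6.68 and 6.69 in LTβR-KO stroma, with 5.86 and 6.01 for splenocytes and 7.03 and 7.21 in culture. On this scale cultured stroma came second, again with no overlap between sample types. Before normalization the *Igfbp6* arrays of WT stroma, at 176 and 231, and of culture, at 195 and 260, overlapped.

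*Igfbp7* was among the bright probes of fresh tissue, with 13.52 and 13.44 in WT stroma against 13.44 and 13.39 in LTβR-KO stroma, with 7.98 and 7.64 for splenocytes and 11.71 and 11.52 in culture. The WT and LTβR-KO arrays met at 13.44 and did not separate. The other *Igfbp7* probes were detected on 0 of 8 arrays and stayed between 4.28 and 4.44, so the gene rests on 1 of its 3 probes.

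*Igfbp4*, which encodes a soluble inhibitor of IGFs, had 2 tested probes. The brighter read 11.75 and 11.89 in WT stroma against 11.41 and 12.06 in LTβR-KO stroma, with 8.58 and 8.75 for splenocytes and 10.32 and 10.30 in culture. The dimmer read 11.49 and 11.45, 11.29 and 10.91, 8.57 and 8.80, and 9.42 and 9.31 in the same order. Both ranked the sample types alike, with r = 0.94 across the 8 arrays as a description. The LTβR-KO arrays straddled the WT arrays on the brighter probe and lay below them on the dimmer. *Igfbp2*, a binding protein gene of fetal tissues and liver, was detected on 1 array, of cultured stroma, with a detection p of 0.0414. Its signals ran from 4.50 to 4.92, and it was not tested.

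The first comparison asks which of these genes differed in fresh stroma that lacked LTβR. *Igf2*, *Igfbp5* and *Igfbp6* were lower in LTβR-KO stroma by about 2-fold, while *Igf1*, *Igf1r*, *Igfbp4* and *Igfbp7* did not pass the test. Thus 3 of 8 tested probes were called lower, where 7.18% of all tested probes were, and 0 were called higher, where 5.31% were. At an unadjusted p under 0.05, 4 probes were lower and 0 higher by limma. The median difference of the 8 probes was −0.33, and that of all tested probes was 0.02.

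*Igf2* fell 1.99-fold, a log2 change of −0.995 with a standard error of 0.18 and a 95% interval from −1.40 to −0.59 (limma adjusted p = 0.00645). *Igfbp5* fell 2.08-fold, by −1.06 with a standard error of 0.20 (interval −1.51 to −0.60, adjusted p = 0.00824). *Igfbp6* fell 1.84-fold, by −0.88 with a standard error of 0.14 (interval −1.20 to −0.57, adjusted p = 0.00314). The calls of *Igf2* and *Igfbp5* were lost without WT stroma replicate 1, with adjusted p = 0.0544 and 0.0641, and with the authors' normalized values, with adjusted p = 0.0516 and 0.0633. Over the 14 other settings their adjusted p ran from 0.00204 to 0.0544 and from 0.00215 to 0.0641. *Igfbp6* kept its call in all 14, with adjusted p from 0.00234 to 0.0239.

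The remaining probes gave intervals and no call. *Igfbp7* differed by −0.07 (interval −0.42 to 0.28) and the brighter *Igfbp4* probe by −0.08 (−0.52 to 0.37). The signs of these 2 differences were not stable: *Igfbp7* gave 0.12 with cyclic loess and 0.09 with scaling to the 75th percentile, and *Igfbp4* gave 0.25 without LTβR-KO replicate 1. The dimmer *Igfbp4* probe differed by −0.37 (−0.74 to −0.00, adjusted p = 0.183), *Igf1r* by −0.30 (−0.68 to 0.08) and *Igf1* by −0.22 (−0.53 to 0.08).

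**Figure D2:**
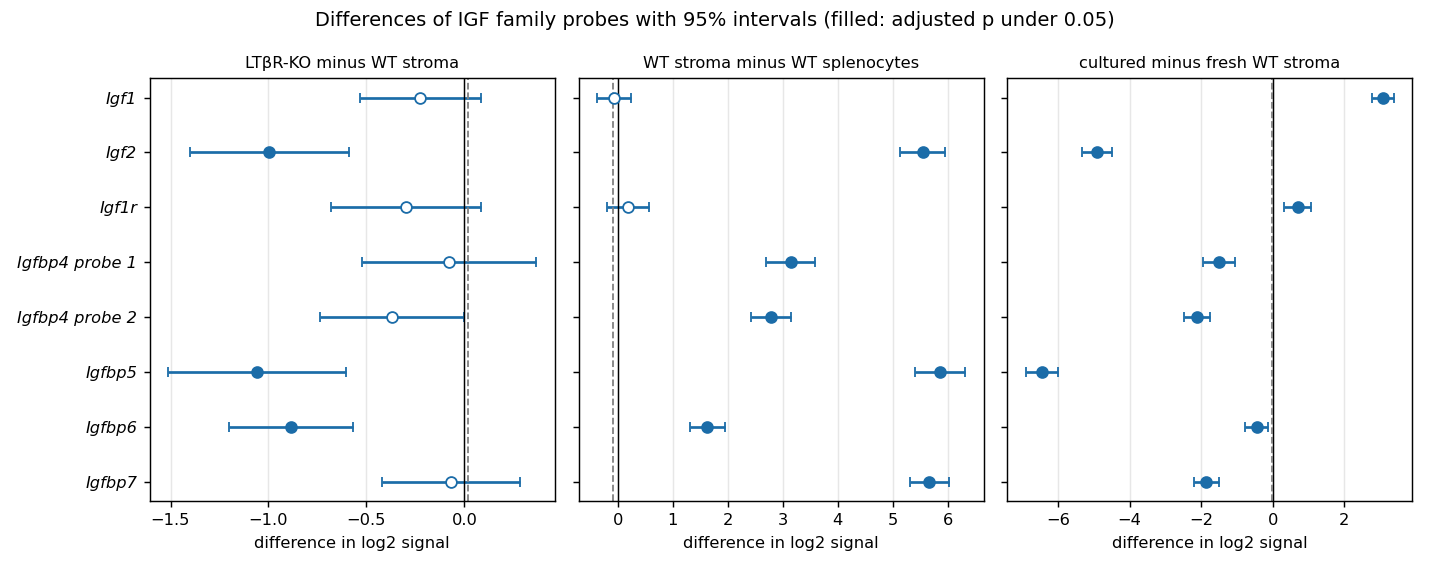
Difference in log2 signal (horizontal axis) of each tested probe in the 3 comparisons, with 95% intervals from the fit of 8 arrays; filled points have an adjusted p under 0.05 and the dashed line is the median of all tested probes. In LTβR-KO stroma *Igf2*, *Igfbp5* and *Igfbp6* lie between −1.06 and −0.88, and *Igfbp7* lies at −0.07.

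Markers of several cell types moved with the same comparison, in which 7.18% of all tested probes were lower and 5.31% higher. For the 731 probes with a WT stroma signal 4-fold or more above splenocytes, the median of LTβR-KO minus WT was −0.66, and for the 1783 probes with a splenocyte signal 2-fold or more above WT stroma it was 0.25. Both sets were chosen with the same WT stroma arrays, which can shift these medians by itself. The first set also holds the tested probes of *Igf2*, *Igfbp4*, *Igfbp5* and *Igfbp7*. The summed linear signal of a marker list is given per array, and the brightest genes weigh most in it. Of 7 tested endothelial markers 5 were lower (median −0.73, range −1.38 to −0.23), with *Plvap* at −0.73, and the sums lay at 7641–7731 on WT arrays and 4913–5577 on LTβR-KO arrays. Of 6 smooth muscle markers 4 were lower (median −1.10), with sums of 24123–27682 and 15663–16863. *Acta2*, the brightest of the 6, weighed most in these sums and was not called (limma adjusted p = 0.0703). Its log2 means were 14.42 in WT and 13.81 in LTβR-KO stroma. Of 7 macrophage markers 2 were higher and 1 lower (median 0.42). The 2 brightest of them went opposite ways, *C1qb*, a complement gene, by 0.67 and *Lyz2*, the lysozyme gene, by −0.80, and the sums were 5700–6189 and 5659–6748. Of 8 fibroblast markers 1 was higher and 1 lower (median 0.08), with sums of 3766–4493 and 4491–4723.

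B cell markers were higher for 3 of 4 genes (median 0.94), T cell markers for 4 of 4 (1.17) and pancreatic acinar markers for 7 of 7 (1.89). Their sums went from 5331–6450 to 12101–13201, from 1295–1582 to 3099–3875 and from 2498–3032 to 9425–10591. No tested marker of these 3 lists was undetected in either fresh stroma type. The part of these shifts in the differences of *Igf2*, *Igfbp5* and *Igfbp6* was not tested.

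Other genes of the IGF system were followed as lists. Beside their counts, 7.18% of all tested probes were lower in LTβR-KO stroma and 5.31% higher. Of 20 further genes for receptors, adaptors, proteases and carriers, 8 were tested, and 2 were lower in LTβR-KO stroma and 0 higher (median −0.35; 4 lower and 0 higher at an unadjusted p under 0.05 by limma). The lower ones were *Stc2*, a stanniocalcin that inhibits the protease PAPP-A, at −0.87 (adjusted p = 0.0154), and *Pappa*, the protease itself, which releases IGFs from IGFBP4, at −0.80 (adjusted p = 0.0381). Without WT stroma replicate 1 or LTβR-KO replicate 1 the list had 1 call, and without WT replicate 2 or LTβR-KO replicate 2 it had 0. *Igf2r*, the receptor that clears IGF2, differed by −0.37 (adjusted p = 0.159).

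Of 12 genes outside the family whose proteins carry an IGFBP-type module, 9 were tested and 3 were lower in LTβR-KO stroma, with a median of −0.16. At an unadjusted p under 0.05 by limma, 4 of them were lower and 1 higher. *Esm1*, encoding the endothelial proteoglycan endocan, differed by −1.33 (adjusted p = 3.79e-04), *Htra1*, a secreted serine protease gene, by −1.22 (adjusted p = 5.19e-04), and *Ccn1*, a matrix-bound growth regulator gene, by −1.05 (adjusted p = 0.00995). Leaving out 1 array at a time gave 2 or 3 calls. Of 9 tested PI3K-AKT genes 0 were called in limma (2 lower and 0 higher at an unadjusted p under 0.05), with a median of −0.28. Of 8 tested imprinted genes 2 were lower, *Ndn*, a neuronal growth suppressor gene, at −0.78 and *Snrpn*, a splicing protein gene, at −0.66, with a list median of −0.37. That count was 1 without WT replicate 1 or LTβR-KO replicate 1 and 0 without WT replicate 2. It was also 1 with scaling to the 75th percentile and with only the 2 groups compared.

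**Figure D3:**
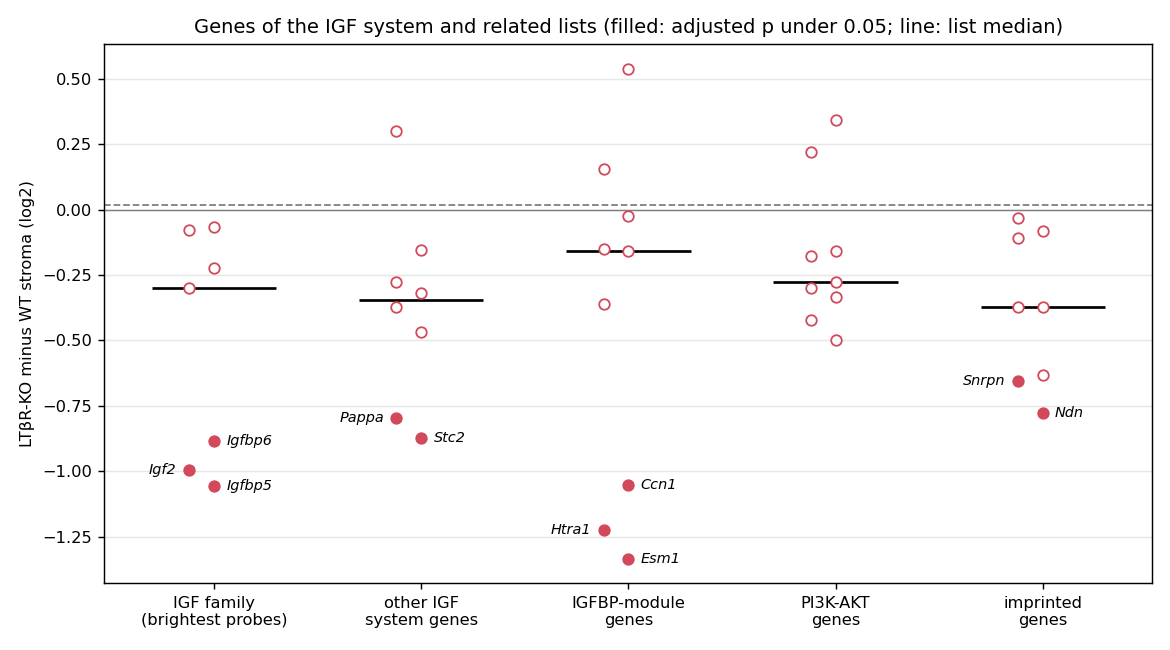
Log2 difference of LTβR-KO minus WT stroma (vertical axis) for each tested gene of the IGF family and of 4 related lists, 1 probe per gene; filled points have an adjusted p under 0.05, solid lines are list medians and the dashed line is the median of all tested probes. The called genes all lie below 0, from *Snrpn* at −0.66 to *Esm1* at −1.33.

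The second comparison asks which genes belonged to the mesh-bound fraction rather than to the washed-off cells. It shares the WT stroma arrays with the first. The probes of *Igf2*, *Igfbp4*, *Igfbp5*, *Igfbp6* and *Igfbp7* were higher in WT stroma, 6 of 8 probes where 24.2% of all tested probes were, and 0 were lower, where 31.6% were (0 also at an unadjusted p under 0.05 by limma). The median of the 8 was 2.97, beside −0.09 over all tested probes, a value that cyclic loess moved to 0.01.

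*Igfbp5* was 58.3-fold higher in WT stroma (log2 difference 5.87, standard error 0.20, limma adjusted p = 5.02e-09), *Igfbp7* 50.9-fold (5.67, standard error 0.16) and *Igf2* 46.7-fold (5.54, standard error 0.18). In splenocytes *Igf2* and *Igfbp5* lay near the dimmest detected signals, which limits the precision of these folds. The *Igfbp4* probes were 8.87-fold and 6.92-fold higher, and *Igfbp6* was 3.10-fold higher (adjusted p = 4.28e-06). All 6 calls held in all 14 other settings. *Igf1* differed by −0.07 (interval −0.38 to 0.24) and *Igf1r* by 0.19 (−0.19 to 0.58), and neither passed.

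All 9 tested IGFBP-module genes were higher in WT stroma as well, with a median of 3.66. Beside this and the list counts that follow, 24.2% of all tested probes were higher and 31.6% lower. *Ccn2*, encoding connective tissue growth factor, was at least 31.3-fold higher, *Esm1* at least 13.3-fold, *Ccn5*, of the same family as *Ccn2*, at least 10.9-fold and *Htra1* at least 9.68-fold. *Htra3*, a protease gene that 1 splenocyte array detected, was 12.9-fold higher. Folds written with "at least" belong to probes that no array of the dimmer type detected, and use the lowest detected signal of each such array in place of the measured one. Of the 8 other IGF system genes 4 were higher and 1 lower, with *Pappa* at least 2.69-fold, *Stc2* at least 2.41-fold, *Stc1*, another stanniocalcin gene, at least 1.12-fold and *Insrr*, an insulin receptor-related receptor gene, at least 1.09-fold higher, and *Igf2bp3*, an RNA-binding protein gene named for *Igf2* mRNA, 1.60-fold lower. Of 9 PI3K-AKT genes 5 were higher, among them the kinase genes *Pdpk1* (1.89), *Pik3cb* (0.81) and *Akt2* (0.60) and *Tsc2*, a brake on mTOR (1.16), and 1 was lower, *Foxo1*, a transcription factor gene that AKT restrains (−1.62). Of 8 imprinted genes 5 were higher and 1 lower, with *Ndn* at least 20.3-fold higher, the cell cycle inhibitor gene *Cdkn1c* 9.09-fold, *Snrpn* 4.71-fold and *Impact*, a translation regulator gene, 1.79-fold higher, and *Gnas*, a G protein subunit gene, 3.01-fold lower.

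The third comparison asks which genes kept their fresh level in cultured stroma. The 8 probes changed in opposite directions. *Igf1* and *Igf1r* were higher in cultured than in fresh WT stroma, 2 of 8 probes where 33.8% of all tested probes were, and the *Igf2*, *Igfbp4*, *Igfbp5*, *Igfbp6* and *Igfbp7* probes were lower, 6 of 8 where 30.9% were. The median of the 8 was −1.68 and that of all tested probes −0.02. This comparison, too, uses the WT stroma arrays.

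*Igf1* rose 8.47-fold in culture (log2 difference 3.08, standard error 0.14, interval 2.77 to 3.39, limma adjusted p = 2.43e-08), and *Igf1r* rose 1.63-fold (0.70, standard error 0.17, adjusted p = 0.00430). *Igfbp5* fell at least 76.5-fold (adjusted p = 2.04e-09) and *Igf2* fell 30.1-fold (adjusted p = 6.24e-09). *Igfbp7* was 3.63-fold lower, and the *Igfbp4* probes were 2.84-fold and 4.32-fold lower, so that both genes remained above their splenocyte arrays. The sizes depended on the processing: over the 15 other settings the log2 difference of *Igfbp7* ran from −1.96 to −0.84. That of the brighter *Igfbp4* probe ran from −1.58 to −0.71 and that of the dimmer from −2.17 to −1.41. Signals before normalization lay closer. The brighter *Igfbp4* probe overlapped, at 2190 and 3082 in WT stroma and 1966 and 2287 in culture. The dimmer did not, at 1826 and 2355 against 992 and 1122. *Igfbp7* had 6950 and 8180 against 5704 and 5453. *Igfbp6* was 1.36-fold lower (−0.45, standard error 0.14, adjusted p = 0.0179). Its call was lost in 4 of 15 other settings: without WT replicate 2 (adjusted p = 0.0922), without cultured replicate 1 (0.101), with cyclic loess (0.0517) and with scaling to the 75th percentile, which also shrank the value to −0.27 (0.190). Over all 15 its adjusted p ranged from 0.00790 to 0.190.

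Cell type markers shifted widely with culture, where 33.8% of all tested probes were higher and 30.9% lower. All 7 tested macrophage markers were higher (median 3.22, range 2.50 to 4.23), such as *Lyz2* (3.22), and their summed signal went from 5700–6189 to 60747–62273. All 7 endothelial markers were lower (median −4.44), from sums of 7641–7731 to 171–178, with 6 of the 7 detected on neither cultured array. Smooth muscle markers were lower for 6 of 6 genes (median −1.91), with sums of 24123–27682 and 10514–10554. Fibroblast markers were mixed, 3 higher and 3 lower of 8, with sums of 3766–4493 and 9271–10301. The rise of these sums rests mainly on 2 of the higher genes. The log2 mean of *Pdpn* went from 7.19 to 12.08 and that of *Dcn* from 11.14 to 11.97. Erythroid markers, the brightest list of fresh stroma, were lower for 3 of 3 genes (median −9.13), with sums of 49529–49689 and 70–72. B cell markers were lower for 3 of 4 genes (median −3.47) and T cell markers for 4 of 4 (median −3.37), with 0 higher in either list. Of 4 platelet markers 1 was higher and 3 lower. The part of these shifts in the changes of *Igf1*, *Igf2* and the binding proteins was not tested.

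Of the 8 other IGF system genes 5 were higher in culture and 2 lower. Beside this and the list counts that follow, 33.8% of all tested probes were higher and 30.9% lower. *Igf2bp3* was higher by 2.06 (adjusted p = 7.73e-07), *Igf2r* by 1.86, *Stc1* by 1.71 and *Grb14*, an adaptor gene that restrains insulin receptor signalling, by 1.41, while *Pappa* was lower by 1.33 (log2 change −1.33, adjusted p = 3.04e-04). Of the 9 IGFBP-module genes 2 were higher, *Ccn1* (1.45) and *Ccn4* (1.39), and 4 were lower, with *Htra3* at least 12.8-fold, *Esm1*, which 1 cultured array detected, 12.9-fold and *Htra1* 3.03-fold lower. Of 9 PI3K-AKT genes 1 was higher, *Eif4ebp1*, a translation repressor gene (2.12), and 4 were lower, *Pdpk1* (−2.60), *Foxo1* (−1.59), *Tsc2* (−0.67) and *Pik3r2*, a regulatory subunit gene (−0.48). Of the 8 imprinted genes 2 were higher, *Gnas* (1.89) and *Igf2r*, and 2 were lower, *Cdkn1c* (−1.91) and *Mest*, a hydrolase gene (limma adjusted p = 0.0435). Neither cultured array detected *Mest*. Its WT stroma mean, 4.91, lay between the dimmest detected signals of those arrays, 5.09 and 4.87, so no fold is given.

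For each tested gene the 3 genes with the most similar profile were sought among 9002 others, by the root mean square difference over the 8 arrays after each profile was centred on its mean. This is a description with no test, and the arrays of a sample type are not independent. *Igf1* was closest to *Plin2*, a lipid droplet protein gene (0.13), then *Csf3*, encoding the cytokine G-CSF, and *Lilr4b*, an inhibitory receptor gene of myeloid cells, whose means outside culture, 4.33 to 4.39, were under the dimmest detected signals. *Igf2* was closest to *Slc9a3r2*, a scaffold protein gene (0.10), whose means were 10.89 in WT stroma against 10.07 in LTβR-KO stroma, with 5.49 for splenocytes and 6.00 in culture, and next to *Sema3f*, a guidance factor gene, and *Fxyd6*.

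*Igfbp5* was closest to *Mmrn2*, an endothelial matrix glycoprotein gene (0.27), *Ramp2*, a receptor partner gene of vessels, and *Tnxb*, encoding a tenascin. From WT to LTβR-KO stroma the mean of *Igfbp5* went from 11.24 to 10.18 and that of *Mmrn2* from 11.20 to 9.66. *Ramp2* went from 11.56 to 11.22 and *Tnxb* from 10.53 to 10.10. The cultured means of *Igfbp5*, *Mmrn2* and *Tnxb*, 4.73 to 4.85, were under the dimmest detected signals of those arrays. *Igfbp7* was closest to *Gpx3*, a secreted glutathione peroxidase gene (0.21), *Olfml3* and *Lhfp*. *Igfbp4* was closest to *Plscr4* (0.18), the syndecan gene *Sdc2* and *Arhgap29*, *Igfbp6* to *Nr2f6*, an orphan nuclear receptor gene (0.12), *Mtmr11* and *Galnt18*, and *Igf1r* to *Blvra*, a biliverdin reductase gene (0.09), *Prm3* and *Dnajc18*. The profile of *Igf1r* was nearly flat outside culture, so its likeness rests on the cultured arrays. The means of *Prm3* and *Dnajc18* outside culture, 4.44 to 4.77, were under the dimmest detected signals.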

How the data were processed

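From 400 ng of total RNA a sample the authors made labelled RNA, which was hybridized to the arrays and read with GenomeStudio. They deposited a bead signal intensity per probe, neither normalized nor background-subtracted, and a detection p-value, which moves in steps of 822 negative controls. The authors also deposited intensity values after cubic spline normalization and subtraction of background (medians 9.30 to 9.35 per array), used here as an alternative with a floor of 16. In R 4.3.3 with limma 3.58.1, signals went through normexp, with the negative controls estimated from detection p-values, were offset by 16, quantile-normalized and logged (neqc). Group means were fitted with lmFit and tested with eBayes (4 residual and 6.22 prior degrees of freedom), with no block. Python 3.11.15 and matplotlib 3.10.9 served for the figures. The fit was tested on simulated arrays with known changes.

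Gene symbols came from the array annotation, in which 20984 probes had 1 symbol, 1 had several and 3628 had none; 20968 matched RefSeq genes of GRCm38.p6 by gene ID. The brightest probe stood for a gene in lists. Groups and replicate numbers came from the sample labels. The genes and lists were chosen with earlier results of these data known. Named genes were all probes of the family, the 3 closest profiles of each, up to 5 called genes per list and comparison (largest changes first) and up to 2 examples per marker list (the brightest). *Pdpn* was added for its weight in a marker sum. Genes given with their values although not called are *Igf2r* and *Ltbr*, named for their roles. *Acta2*, not called in LTβR-KO stroma, is named as the brightest smooth muscle marker. Alternatives were no background correction, an offset of 50, cyclic loess, the authors' values, scaling to the 75th percentile, a detection p under 0.01 or no filter, only the 2 compared groups, the replicate number as a block, a trend in eBayes and leaving out each array, where a lone array was assumed to vary like the other groups. A crossed block and all alternatives for the IGFBP-module, PI3K-AKT and imprinted lists were added after seeing the data. The number of arrays limits the precision.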

Additional observations from a re-analysis of the deposited data

How the results depend on the processing

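The counts of called family probes were the same or within 1.5 times in most alternatives. In LTβR-KO against WT stroma the count fell from 3 to 1 with the authors' values, and ranged from 1 to 3 when each array was left out. In WT stroma against splenocytes it was 6 in all 14 alternatives, and in cultured against fresh WT stroma 7 to 8 in 15.

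The other listed IGF genes called in LTβR-KO stroma numbered 2 in the report and 1 with no background correction, an offset of 50 or the authors' values. They numbered 0 with scaling to the 75th percentile, no detection filter or only the 2 compared groups, and 0 to 1 when arrays were left out. In WT stroma against splenocytes they numbered 3 in place of 5 with an offset of 50, and 3 to 4 when arrays were left out. Signs reversed only for differences that were not called: *Igfbp7* in LTβR-KO stroma (0.12 with cyclic loess, 0.094 with scaling to the 75th percentile), the brighter *Igfbp4* probe there (−0.40 to 0.25 when arrays were left out, above 0 without LTβR-KO replicate 1), and *Igf1* in WT stroma against splenocytes (0.044 with cyclic loess, −0.15 to 0.017 when arrays were left out, above 0 without WT replicate 2). The imprinted genes called in LTβR-KO stroma numbered 1 in place of 2 with scaling to the 75th percentile and with only the 2 compared groups, and 0 to 2 when arrays were left out. The causes were not tested.

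Over all tested probes, the 1547 calls in LTβR-KO stroma became 753 with only the compared groups, 1019 with scaling to the 75th percentile, 713 without WT replicate 1 and 960 without LTβR-KO replicate 2. Whether the replicate numbers pair the samples could not be decided with 2 arrays a sample type. The correlation of replicate differences was 0.29 for the fresh stroma types. For the other pairs of sample types it ran from −0.14 to 0.11. With the replicate number as a block the family counts were 3, 6 and 8, as without it, and all tested probes gave 1518 calls in LTβR-KO stroma. With the cultured numbers crossed, the block gave 8 family calls in culture and 8025 in all, against 8014. Signals of *Igf1r* and *Igfbp2* lay near the detection limit.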
